A study of Rattus norvegicus with 115 samples.

Results

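The contralateral brain of rats that had received a broad beam (BB) of synchrotron X-rays was compared with that of untreated rats 6 h after the irradiation, on 6 BB arrays (rats 44 to 49) and 5 Untreated arrays (rats 1 to 5), that is 11 of the 115 arrays of the series. The arrays were assigned to the groups by their labels, as the BB-contralateral and Untreated contralateral samples taken at 6 h, and each is a different rat. The comparison itself was set with earlier results of these data known. All of the animals, the untreated ones included, were Fisher rats that carried a tumour grown from 9L cells, a rat gliosarcoma line, in the right caudate nucleus, and the sampled tissue is labelled normal brain of the hemisphere that held no tumour. BB rats received 17,4 Gy (written as in the labels) in a uniform field 10 days after the cells were implanted, and Untreated rats were not irradiated. The dose to the contralateral hemisphere itself is not given in the sources used here. The series also holds rats given microbeam radiation (MRT), in which the X-rays are split into narrow parallel beams, at a dose of 400 Gy within each beam and 18 Gy in the tissue between beams; 9 of these rats had a contralateral array at 6 h. BB and Untreated samples were also taken at 48 h (3 and 4 arrays) and 8 d (4 and 4), and BB samples at 15 d (4). Expression was measured on the Affymetrix Rat Genome 230 2.0 array, and every level below is the log2 of the deposited intensity of a gene's brightest probe set, so that a difference of 1 is a doubling.

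In irradiated cells, breaks in DNA activate the transcription factor p53, which switches on genes that stop the cell cycle, repair DNA or start cell death. Irradiated brain is also known for an early inflammatory response in which glia and the endothelial cells that line its vessels make chemokines and adhesion molecules, proteins that attract white blood cells and let them attach to the vessel wall. Interferons, signalling proteins of the antiviral response, act on most cell types through a shared set of response genes. Endothelial cells of brain form the blood-brain barrier, with sealed junctions and transporters, and microglia are the resident immune cells of the tissue.

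Of 14217 genes, 2753 (19.4%) were called at adjusted p under 0.05 by limma, a linear model with moderated variances, with Benjamini-Hochberg adjustment over all probe sets. Of these genes, 1133 (7.97%) were higher and 1620 (11.4%) lower after BB. Most of the differences were small: 304 genes (2.14%) were called with a difference past 1 log2 unit, and in this group rises outnumbered falls, 190 (1.34%) against 114 (0.802%). The levels of the 6 BB arrays lay all above or all below those of the 5 Untreated arrays in 2450 genes (17.2%), and 1841 genes (12.9%) were both called and free of overlap. The median difference over all genes was −0.0045. The count changed with the arrays that shared the fit: it was 1639 without Untreated rat 3 and 4133 without rat 18, an Untreated rat of the 48 h group whose array stands apart. With all 115 arrays in the fit it was 1560 and with the Gapdh measure described below as a covariate 1710. Falls outnumbered rises with quantile normalization too (1095 higher and 1620 lower), but not in 3 other fits. These were a common array median (1560 higher and 1440 lower) and array quality weights (2160 higher and 2147 lower). The last was the Actb measure described below as a covariate, with 1922 calls (1030 higher and 892 lower).

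Several features of the arrays run with the comparison. First, the submitters' processing notes name MAS5 and RMA for the other 80 arrays but RMA alone for the 35 BB arrays, so in the direct comparison BB irradiation and this difference in processing notes cannot be told apart. To address this, the BB difference at 6 h was also set against the BB difference at 8 d in the same model, where a constant offset of the BB arrays cancels; this is called the change in BB effect below. Second, the difference between the 3′ and 5′ probe sets of Actb, a measure of how much of each transcript was copied, was 2.35 ± 0.21 in BB arrays (SD, n = 6; 1.99 to 2.55) and 1.47 ± 0.37 in Untreated arrays (n = 5; 1.20 to 2.11), and it differed by a two-sided exact permutation test (p = 0.0087, adjusted p = 0.0346 over 4 measures). For Gapdh it was 0.33 ± 0.20 in BB arrays and 0.018 ± 0.26 in Untreated arrays (p = 0.0476, adjusted p = 0.0635, same exact permutation test). The part of the Actb and Gapdh measures in the gene differences was not tested beyond the fits that hold them as covariates. Those fits are given for the main results they change, and as counts of kept calls in the last section. The part of the array median was not tested beyond the fits with a common array median.

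In order of size, the 12 called genes without overlap that rose most were Ccl2, Gbp2, Cxcl10, Cxcl11, Sele, Ccl9, Gbp7, Angpt2, Cdkn1a, Cxcl16, Ccl7 and Pla1a, with differences between 6.13 and 3.17 log2 units. All 12 were called in each alternative fit and whichever of the 11 arrays was left out. The promoters of 10 of them, the 250 bases before the gene start, were in the sequence table used here (RefSeq, build GRCr8). They were searched on both strands for GAAANNGAA, the core of the element bound by interferon-activated factors, and for GGGANNTTC, a strict form of most of the NF-kB element, NF-kB being the factor that drives many inflammatory genes. The first string was found in 3 of the 10, against 2194 of all 27457 promoters of this length (7.99%), and the second in 3 of the 10, against 898 (3.27%). The 5 promoters that held a match are printed here, on the strand of the gene, with the matches in capitals, because they belong to the guanylate-binding protein and chemokine genes among the largest rises.
Gbp2 (chr2:234005477-234005726, plus strand): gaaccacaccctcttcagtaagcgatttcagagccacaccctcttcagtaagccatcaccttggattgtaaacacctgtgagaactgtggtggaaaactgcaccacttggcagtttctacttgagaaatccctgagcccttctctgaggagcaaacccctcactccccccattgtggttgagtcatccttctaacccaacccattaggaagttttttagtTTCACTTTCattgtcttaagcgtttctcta
Gbp7 (chr2:233948639-233948888, plus strand): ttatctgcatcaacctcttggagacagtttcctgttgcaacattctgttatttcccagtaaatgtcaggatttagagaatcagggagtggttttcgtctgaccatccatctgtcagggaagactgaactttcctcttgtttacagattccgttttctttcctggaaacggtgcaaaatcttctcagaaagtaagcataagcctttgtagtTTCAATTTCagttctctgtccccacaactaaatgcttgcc
Cxcl10 (chr14:15988816-15989065, plus strand): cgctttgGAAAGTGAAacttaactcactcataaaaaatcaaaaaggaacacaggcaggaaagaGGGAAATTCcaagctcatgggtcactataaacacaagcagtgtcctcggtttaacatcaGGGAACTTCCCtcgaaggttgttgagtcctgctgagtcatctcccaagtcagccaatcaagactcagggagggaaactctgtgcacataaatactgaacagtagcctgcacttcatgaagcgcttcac
Cxcl11 (chr14:15973478-15973727, plus strand): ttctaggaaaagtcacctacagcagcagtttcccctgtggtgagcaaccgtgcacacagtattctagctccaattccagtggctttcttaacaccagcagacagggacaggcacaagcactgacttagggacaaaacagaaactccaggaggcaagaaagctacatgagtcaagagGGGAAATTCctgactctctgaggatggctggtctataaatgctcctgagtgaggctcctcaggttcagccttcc
Ccl7 (chr10:67513845-67514094, plus strand): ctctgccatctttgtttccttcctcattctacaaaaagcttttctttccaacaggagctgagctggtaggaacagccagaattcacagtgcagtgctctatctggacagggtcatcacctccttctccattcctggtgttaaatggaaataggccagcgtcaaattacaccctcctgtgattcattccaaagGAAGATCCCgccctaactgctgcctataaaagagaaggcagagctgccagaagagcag
In Gbp2 and Gbp7 the capitals are the interferon string, read on the minus strand, and start 30 and 40 bases before the gene. The promoter of Cxcl10 holds the interferon string 243 bases before the gene and the NF-kB string at 187 and 128 bases, with a minus-strand match at 126 that overlaps the last of these. Cxcl11 has the NF-kB string at 74 bases and Ccl7 has it at 58, on the minus strand. Among the 12 largest falls, 8 had a promoter in the table; each string was in 1 of them, that of Abcg2 in both cases. Over the gene lists used here, the interferon string was in 13 of 23 promoters of interferon response genes (56.5%) and in 2 of 19 promoters of acute inflammation genes, while the NF-kB string was in 3 of the 23 and in 6 of the 19 (31.6%). A match is a string of letters and not a binding site shown in this tissue, and a promoter without one lacks these letters in this window and no more.

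Ccl2, the main chemokine that attracts monocytes, rose most. Its level ran from 10.54 to 10.95 with a median of 10.72 in BB hemispheres, against 4.25, 4.58, 4.64, 4.81 and 4.75 in Untreated hemispheres. The BB hemispheres lay close together and stood far above each Untreated hemisphere, whose levels were near the low end of the scale. The difference was 6.13 ± 0.40 log2 units (standard error), or 70.1-fold, with an adjusted p of 4.08e-17. Ccl7, a relative of Ccl2 that binds the same receptor, ran from 7.79 to 8.66 (median 8.14) in BB hemispheres, against 4.75, 4.95, 4.95, 5.00 and 4.81 in Untreated hemispheres. That is a difference of 3.31 ± 0.38, or 9.94-fold, with no overlap. Ccl9, known in mouse as a chemokine of myeloid cells, was 4.19 ± 0.28 higher (18.3-fold), with BB levels from 7.86 to 9.03 and Untreated levels of 4.09, 4.32, 4.46, 5.09 and 4.32.

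Cxcl10 and Cxcl11, interferon-induced chemokines that act on the receptor Cxcr3 of T cells, rose almost as much as Ccl2. Cxcl10 ran from 9.95 to 10.36 (median 10.19) in BB hemispheres, against 4.75, 4.32, 5.13, 4.81 and 4.95 in Untreated hemispheres, a difference of 5.38 ± 0.38 (41.7-fold). For Cxcl11 the BB levels were 10.08 to 10.57 (median 10.23) and the Untreated levels 4.95, 4.52, 5.17, 4.91 and 5.21, a difference of 5.34 ± 0.42 (40.5-fold). The BB hemispheres lay close together in both genes and none came near an Untreated hemisphere. Cxcl16, a membrane-bound chemokine that also takes up oxidised lipoprotein, ran from 10.18 to 10.59 in BB hemispheres, against 6.74, 7.08, 7.28, 7.11 and 6.81 in Untreated hemispheres, a difference of 3.38 ± 0.20 (10.4-fold). Ccl5, which attracts T cells and monocytes, was 2.94 ± 0.27 higher, at 8.78 to 9.45 in BB hemispheres and 5.70, 6.15, 6.58, 6.21 and 6.00 in Untreated hemispheres.

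**Figure D1:**
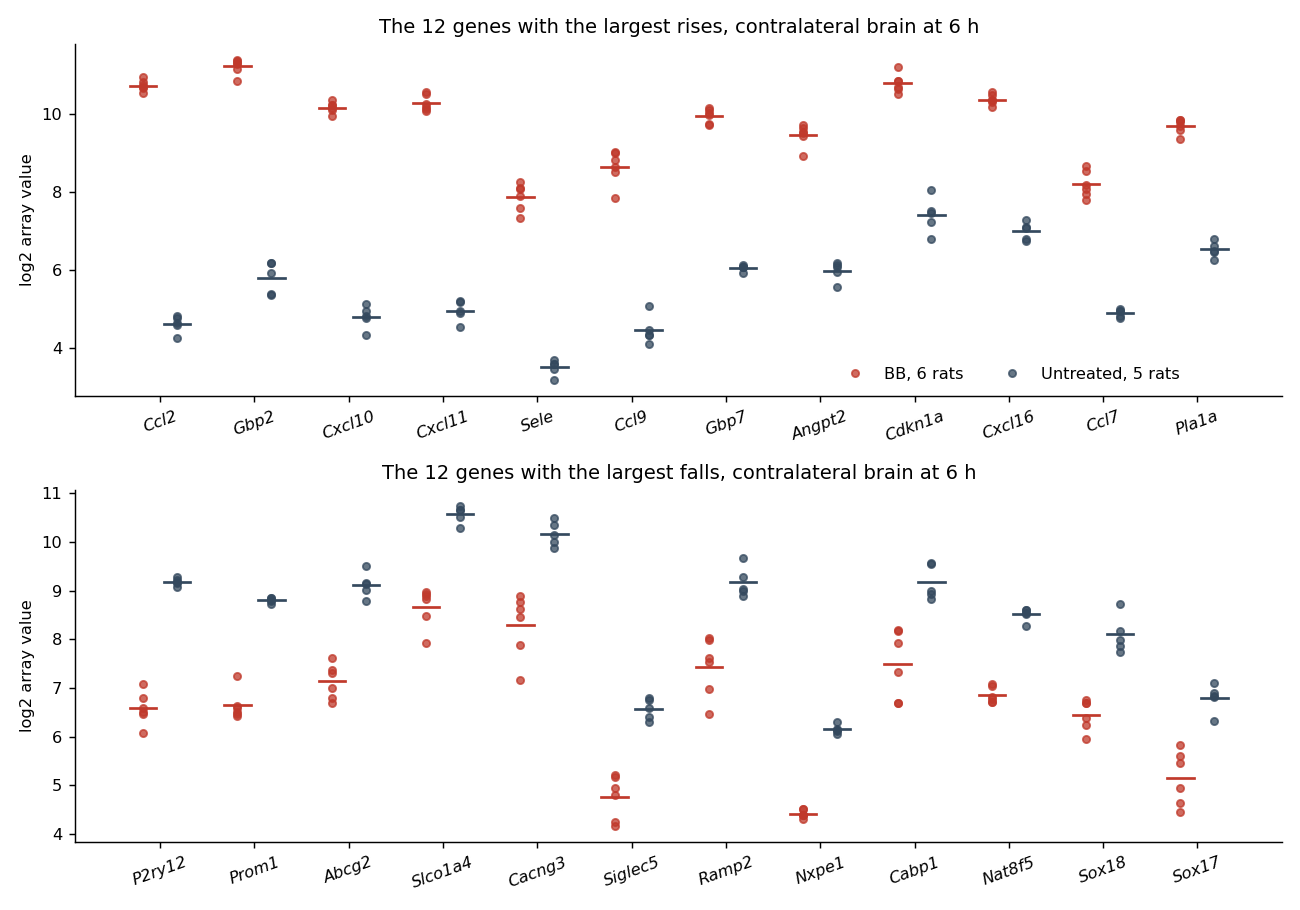
Log2 level of the 12 genes that rose most and the 12 that fell most in contralateral brain 6 h after BB, one point per rat and a bar for each group mean, with the BB hemispheres (n = 6) left of the Untreated hemispheres (n = 5) for each gene. The 6 BB points of each gene lie wholly above or wholly below the 5 Untreated points, which the choice of genes required; Ccl2 shows the widest gap (6.13 log2 units) and P2ry12 the widest of the falls (−2.59).

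Genes by which vessels hold and signal to white cells rose as well. Sele encodes E-selectin, which activated endothelium makes to slow passing leukocytes. It ran from 7.35 to 8.25 (median 7.99) in BB hemispheres, against 3.46, 3.70, 3.58, 3.17 and 3.58 in Untreated hemispheres. The Untreated values were among the lowest on the array, where the rounding of the deposited intensities alone is a step of up to 0.19 log2 units, and the BB values were all well above them. The 5th percentile of all levels on an Untreated array averaged 3.83, so the difference of 4.38 ± 0.20 (adjusted p = 1.98e-23) was measured against levels at the bottom of the range and is not given as a fold. Detection calls were not analysed here. Icam1, to which leukocytes adhere firmly after selectins have slowed them, was at 8.80 to 9.24 in BB hemispheres and 6.49, 6.91, 7.10, 6.71 and 6.77 in Untreated hemispheres (2.30 ± 0.25). Vcam1, another adhesion molecule of this kind, rose by 1.19 ± 0.28, while Selp, which encodes P-selectin, averaged 5.14 in BB and 5.03 in Untreated hemispheres and was not called. Angpt2, a vessel-destabilising factor stored and released by endothelium, ran from 8.93 to 9.73 (median 9.53) in BB hemispheres, against 6.09, 6.13, 5.95, 5.55 and 6.17 in Untreated hemispheres, a difference of 3.49 ± 0.26 (11.2-fold). Pla1a, a phospholipase that releases lysophosphatidylserine, rose by 3.17 ± 0.23 (8.97-fold), at BB levels of 9.38 to 9.85 and Untreated levels of 6.46, 6.27, 6.63, 6.79 and 6.49.

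In all, 15 of the 25 measured genes of the acute inflammation list rose and 0 fell, with a median difference of 1.19, beside 7.97% of all genes that rose and a median over all genes of −0.0045. The inhibitors of NF-kB that NF-kB itself induces were among them: Nfkbia rose by 1.52 ± 0.21, Tnfaip3 by 1.31 ± 0.17 and Nfkbiz by 1.42 ± 0.19. Among the cytokines, Il1b, which encodes interleukin-1 beta, rose by 1.60 ± 0.32, at a mean of 7.39 in BB and 5.79 in Untreated hemispheres. The neutrophil-attracting chemokines Cxcl1 (1.53 ± 0.33) and Cxcl2 (1.08 ± 0.37) rose less than the monocyte and T-cell chemokines. Il6, Tnf and Il1a, textbook cytokines of acute inflammation, were not called and differed by 0.21, 0.00 and 0.20, and the cyclooxygenase gene Ptgs2 by 0.34, while Ptges, the prostaglandin E synthase that acts after it, rose by 1.15 ± 0.25. Leaving out any of the 11 arrays gave 14 or 15 rises in this list.

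Interferon response genes rose in 23 of 29 measured cases with 0 falls, a median of 1.46. Gbp2, a guanylate-binding protein that attacks the membranes of intracellular pathogens, ran from 10.86 to 11.40 (median 11.30) in BB hemispheres, against 5.36, 6.17, 6.17, 5.39 and 5.93 in Untreated hemispheres. The groups were thus far apart, with a difference of 5.43 ± 0.34 (43.1-fold). Its relative Gbp7 ran from 9.73 to 10.16 (median 10.02) in BB hemispheres, against 5.93, 6.07, 6.09, 6.07 and 6.13 in Untreated hemispheres, a difference of 3.91 ± 0.33 (15.0-fold). Antiviral effectors were among the rises: Rsad2, which encodes viperin, by 2.86 ± 0.34, Mx1 by 2.51 ± 0.36, Isg15, a ubiquitin-like modifier, by 2.66 ± 0.29 and Ifit3 by 2.57 ± 0.33. The immunoproteasome subunits Psmb9 (2.37 ± 0.29) and Psmb8 (1.46 ± 0.25) and the peptide transporter Tap1 (1.68 ± 0.24), which prepare antigens for MHC class I, rose as well. Of the transcription factors, Irf1, which is induced early by interferon gamma and NF-kB, rose by 1.79 ± 0.29, Irf7 by 1.14 ± 0.22 and Irf9 by 0.74 ± 0.16. The 6 members not called included Ifit1 (0.03), Ifi27 (−0.02) and Stat2 (0.47), and 22 to 24 members rose when single arrays were left out.

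**Figure D2:**
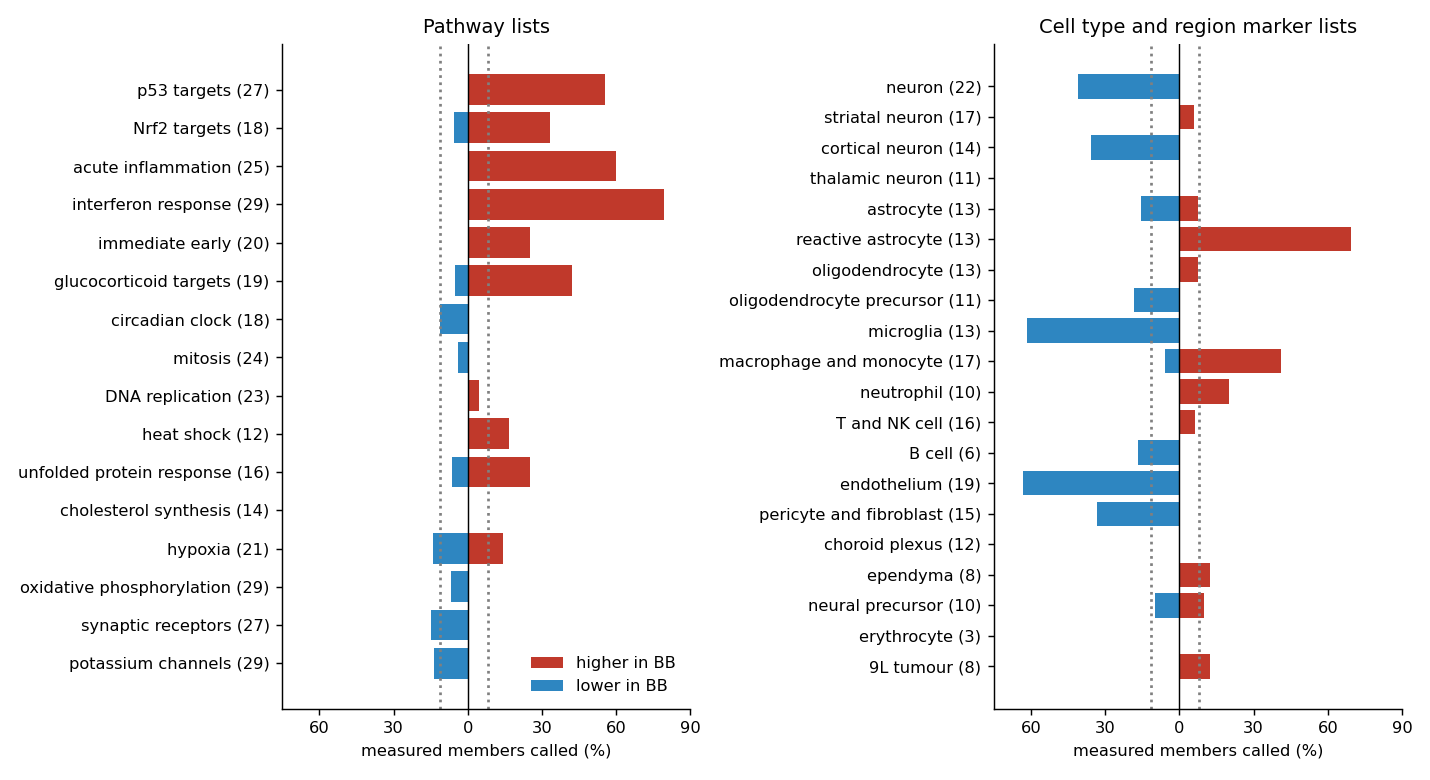
Share of each gene list that was called at 6 h, in percent of its measured members (number in brackets), as bars to the right for genes higher and to the left for genes lower in BB than in Untreated contralateral brain; dotted lines mark the shares over all genes, 7.97% higher and 11.4% lower. The interferon response, reactive astrocyte, acute inflammation and p53 target lists (23 of 29, 9 of 13, 15 of 25 and 15 of 27 genes) reach farthest to the right, and the endothelium and microglia lists (12 of 19 and 8 of 13) farthest to the left.

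p53 target genes rose in 15 of 27 cases with 0 falls, a median of 0.45. Cdkn1a encodes the cell-cycle inhibitor p21 and ran from 10.53 to 11.23 (median 10.77) in BB hemispheres, against 6.81, 7.46, 8.06, 7.51 and 7.24 in Untreated hemispheres. No BB hemisphere came near the highest Untreated one, rat 3, and the difference was 3.39 ± 0.21 (10.5-fold, adjusted p = 4.21e-18). The death receptor Fas ran from 7.90 to 8.19 in BB hemispheres, against 5.32, 5.17, 5.21, 4.81 and 4.91 in Untreated hemispheres, a difference of 2.97 ± 0.18. The apoptosis-enhancing nuclease Aen (1.98 ± 0.12), Phlda3, an inhibitor of Akt signalling (1.90 ± 0.16), Mdm2, the ubiquitin ligase that degrades p53 (1.31 ± 0.11), and Ccng1, which encodes cyclin G1 (1.18 ± 0.27), rose without overlap between the groups, though the call of Ccng1 was lost with the Actb measure as a covariate. The stress cytokine Gdf15 rose by 0.95 ± 0.21 and Bbc3, which encodes the cell-death protein PUMA, by 0.72 ± 0.13. Other known targets were not called: Zmat3 differed by 0.13, Sesn1 by 0.05 and the repair genes Ddb2 and Xpc by −0.22 and 0.12. Mgmt, which removes alkyl groups from guanine and is induced by radiation in rat cells, was 0.84 higher (adjusted p = 2.25e-05), at 6.54 to 7.21 in BB hemispheres and 5.98, 5.95, 6.55, 5.58 and 5.91 in Untreated hemispheres, where the highest Untreated rat reached the lowest BB rat.

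Of 13 genes that mark reactive astrocytes, 9 rose and 0 fell (median 1.35), 1 of which, Cxcl10, is also on the interferon list. They included S1pr3, a receptor of sphingosine-1-phosphate, at 9.79 to 10.10 in BB hemispheres and 7.61, 7.61, 7.80, 7.75 and 7.62 in Untreated hemispheres (2.26 ± 0.21). Cp, the copper-carrying ceruloplasmin, rose by 2.42 ± 0.24, the metalloreductase Steap4 by 2.89 ± 0.31, the hyaluronan receptor Cd44 by 2.10 ± 0.24 and the protease inhibitor Timp1 by 2.97 ± 0.40. The Untreated levels of Steap4 (3.17, 3.46, 3.32, 3.58 and 3.32) were at the bottom of the range, as those of Sele were, and are limited by rounding. The filament proteins by which reactive astrocytes are usually recognised were not called: Gfap averaged 11.96 in BB and 11.77 in Untreated hemispheres, and Vim 10.87 and 10.58. Among 13 general astrocyte markers, the water channel Aqp4 was 0.55 ± 0.11 higher and the gap junction gene Gjb6 0.76 ± 0.23 lower. The call of Gjb6 was lost with the Gapdh measure as a covariate.

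The largest fall was in a microglial receptor. P2ry12, the ADP receptor by which resting microglia sense injury, ran from 6.09 to 7.09 (median 6.55) in BB hemispheres, against 9.08, 9.18, 9.21, 9.15 and 9.28 in Untreated hemispheres. The Untreated rats lay close together and all BB rats were far lower, a mean difference of −2.59 ± 0.37, which left 16.6% of the Untreated level. Siglec5, a sialic acid binding receptor listed here with the microglia, ran from 4.17 to 5.21 in BB hemispheres, against 6.30, 6.60, 6.75, 6.41 and 6.79 in Untreated hemispheres (−1.81 ± 0.16). Csf1r, the growth factor receptor on which microglia depend, was 1.18 ± 0.18 lower, Tmem119 was 1.05 ± 0.31 lower and the lipid-sensing receptor Trem2 was 0.80 ± 0.14 lower. In all, 8 of 13 microglia markers fell and 0 rose (median −0.79), beside 11.4% of all genes that fell; the other 5 were not called, among them Cx3cr1 (−0.30) and Aif1 (−0.48). The mean of the 13 markers ran from 6.94 to 7.42 over BB hemispheres and from 8.05 to 8.29 over Untreated ones. In bulk tissue, fewer cells of a type and less RNA per cell cannot be told apart.

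Endothelial genes fell in 12 of 19 cases with 0 rises, a median of −0.71, and the mean of the 19 ran from 7.14 to 7.80 over BB hemispheres and from 8.27 to 8.53 over Untreated ones. Among the transporters of the blood-brain barrier, Abcg2, an efflux pump that returns drugs to the blood, ran from 6.70 to 7.62 (median 7.16) in BB hemispheres, against 9.50, 9.15, 9.02, 8.79 and 9.13 in Untreated hemispheres, a difference of −1.99 ± 0.20 that left 25.2% of the Untreated level. Slco1a4, an organic anion carrier, ran from 7.93 to 8.98 (median 8.86) in BB hemispheres, against 10.66, 10.66, 10.29, 10.51 and 10.74 in Untreated hemispheres (−1.90 ± 0.25, 26.8% of Untreated). No BB hemisphere reached an Untreated one in either gene. Abcb1a, which encodes P-glycoprotein, was 1.43 ± 0.21 lower and the thyroxine carrier Slco1c1 1.17 ± 0.16 lower, whereas the glucose carrier Slc2a1 was not called (−0.16).

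The transcription factors Sox17 and Sox18, which specify endothelial and arterial fate, fell as well. Sox18 ran from 5.95 to 6.75 (median 6.54) in BB hemispheres, against 7.99, 8.16, 8.72, 7.86 and 7.75 in Untreated hemispheres (−1.64 ± 0.21). Sox17 ran from 4.46 to 5.83 (median 5.21) in BB hemispheres, against 7.10, 6.81, 6.91, 6.32 and 6.84 in Untreated hemispheres (−1.64 ± 0.24). BB rats spread more widely in Sox17 than in Sox18 and still did not overlap with Untreated rats. The angiopoietin receptor Tek, the receptor of Angpt2, was 1.12 ± 0.16 lower, its relative Tie1 1.32 ± 0.20 lower and the surface glycoprotein Emcn 1.42 ± 0.20 lower. Other members of the list were not called: Pecam1 averaged 7.11 in BB and 7.00 in Untreated hemispheres, Kdr 8.09 and 7.82, Flt1 6.88 and 6.70 and Esam 8.78 and 8.69, and the junction gene Cldn5 differed by −0.45 (adjusted p = 0.0736). Prom1, a membrane protein of precursor and epithelial cells, ran from 6.43 to 7.26 (median 6.55) in BB hemispheres, against 8.72, 8.84, 8.81, 8.84 and 8.78 in Untreated hemispheres (−2.15 ± 0.18, 22.5% of Untreated). BB rat 44 was the highest of its group and still far below each Untreated rat.

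**Figure D3:**
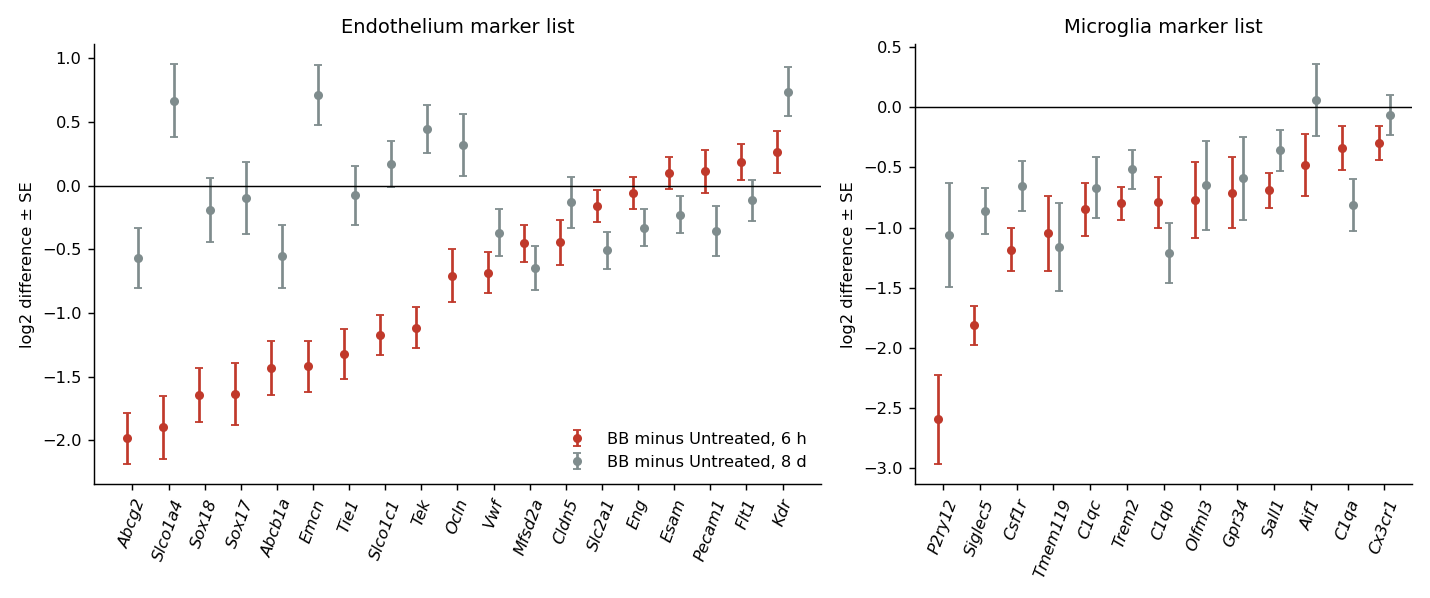
Log2 difference between BB and Untreated contralateral brain, with standard error bars, for each measured gene of the endothelium and microglia marker lists, at 6 h in red and at 8 d in grey. At 6 h the endothelial values run from −1.99 (Abcg2) to 0.27 (Kdr) and the microglial values from −2.59 (P2ry12) to −0.30 (Cx3cr1); at 8 d Slco1a4 (0.67) and Emcn (0.71) are above 0.

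Ramp2, a subunit of the adrenomedullin receptor, ran from 6.46 to 8.02 (median 7.57) in BB hemispheres, against 9.04, 8.99, 9.66, 9.27 and 8.88 in Untreated hemispheres (−1.74 ± 0.26). Its lowest levels were in BB rats 46 (6.46) and 48 (6.98), which had the largest Gapdh 3′ minus 5′ differences of the BB group (0.65 and 0.50). Its call was kept with the Gapdh or the Actb measure as a covariate. Nxpe1 was at 4.32 to 4.52 in BB hemispheres and 6.13, 6.11, 6.15, 6.30 and 6.07 in Untreated hemispheres (−1.73 ± 0.14), with little spread in either group. Nat8f5, of a family of acetyltransferases, was 1.65 ± 0.26 lower, at 6.71 to 7.09 in BB hemispheres and 8.54, 8.60, 8.61, 8.27 and 8.52 in Untreated hemispheres. Of 15 pericyte and fibroblast markers 5 fell and 0 rose, among them the matrix proteoglycan Lum (−1.30 ± 0.23), Tagln, a protein of contractile cells (−1.08 ± 0.25), and Abcc9, a potassium channel subunit of pericytes (−0.56 ± 0.13). This count was 2 with all 115 arrays, 3 with either covariate of RNA quality and 10 with the 11 arrays alone.

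Of 22 general neuron markers 9 fell and 0 rose, a median of −0.25. The synaptic vesicle genes Syn1 (−1.19 ± 0.28) and Syp (−0.88 ± 0.17), the vesicular glutamate transporter Slc17a7 (−1.17 ± 0.27) and the ubiquitin hydrolase Uchl1 (−1.09 ± 0.20) were among them. Cacng3, an auxiliary subunit of AMPA receptors, and Cabp1, a neuronal calcium-binding protein, had the largest falls of the neuronal genes. Cacng3 was at 8.46, 8.62, 7.16, 8.88, 7.88 and 8.77 in BB rats 44 to 49, against 10.14, 10.34, 9.88, 10.48 and 10.00 in Untreated hemispheres (−1.88 ± 0.35). Cabp1 was at 7.32, 8.19, 6.69, 7.92, 6.69 and 8.16 in BB hemispheres, against 8.98, 8.93, 9.56, 9.55 and 8.82 in Untreated hemispheres (−1.67 ± 0.35). In both genes BB rats 46 and 48 were the lowest, or shared the lowest level. These rats also had the largest Gapdh 3′ minus 5′ difference of the BB group, 0.65 and 0.50, and the lowest array median. The neuron count rested on the fit: 5 of the 9 falls were left with the Gapdh measure as a covariate, 3 with the Actb measure and 0 when all 115 arrays shared the fit, whereas under the same settings at least 10 endothelial and at least 6 microglial genes fell. The call of Slc17a7 was lost with either covariate. The part of RNA quality in the neuronal falls was not tested further. Of 14 cortical neuron markers 5 fell, 0 or 1 of them in the fits with a covariate of RNA quality or with all 115 arrays, and of 17 striatal neuron markers 1 rose, a count of 0 in 8 of 11 fits without 1 array. Among 27 synaptic receptor and 29 potassium channel genes 4 fell in each list and 0 rose, a share close to the 11.4% of all genes that fell. The potassium channel count was 2 without Untreated rat 3 or 4 or BB rat 46 or 48.

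Of 20 immediate early genes 5 rose: Atf3, a stress-induced repressor, by 2.72 ± 0.32, and Fos, Egr2, Ier2 and Jun by 1.89 ± 0.49, 1.70 ± 0.56, 1.21 ± 0.23 and 0.36 ± 0.12. The count was 3 without Untreated rat 2 or 4 or BB rat 46, and the call of Egr2 was lost in 4 of 11 fits without 1 array. The call of Egr2 was also lost with the Gapdh covariate and with the mean of all probe sets. Its other probe set differed by 0.40 (adjusted p = 0.347 by limma). Among glucocorticoid-responsive genes 8 of 19 rose and 1 fell, with Cebpd (2.15 ± 0.24), the metallothionein Mt2A (2.11 ± 0.19) and Angptl4 (1.99 ± 0.23) in front, while Fkbp5, a more specific reporter of glucocorticoid action, rose by 0.45 ± 0.15 with overlap. Of 18 Nrf2 targets 6 rose, among them Hmox1, which encodes heme oxygenase (1.34 ± 0.27), and 1 fell, the glutathione transferase Gstm1 (−1.31 ± 0.24). The count of 7 was 4 without Untreated rat 1 or 5 and 11 without Untreated rat 18 of the 48 h group. The clock-controlled factors Dbp (−1.17 ± 0.18) and Nr1d1 (−0.83 ± 0.14) were the 2 of 18 circadian genes called, a share close to the 11.4% of all genes that fell. The heat shock genes Hspb1 (1.30 ± 0.32) and Bag3 (1.00 ± 0.18) were the 2 of 12 called in that list, a count of 7 without rat 18. By limma, 0 of 14 cholesterol synthesis genes were called (4 at an unadjusted p under 0.05), 0 of 11 thalamic (1) and 0 of 12 choroid plexus markers (0), while 1 of 24 mitosis genes fell (Ttk, −0.83 ± 0.29) and 1 of 23 replication genes rose (Tyms, 0.58 ± 0.19). Both shares were below the 11.4% and 7.97% of all genes, and the calls of Ttk and Tyms were lost in 9 and 5 of the 11 fits without 1 array. Both calls were also lost with the Actb measure as a covariate, and that of Tyms with the Gapdh measure. Hypoxia genes rose in 3 and fell in 3 of 21 cases, unfolded protein response genes in 4 and 1 of 16 (3 calls in all without Untreated rat 3), and oxidative phosphorylation genes in 0 and 2 of 29. These counts, the heat shock count and the cell type counts below stand beside 7.97% of all genes that rose and 11.4% that fell. The oxidative phosphorylation falls, Cox4i1 and Ndufv1, lost their calls with either covariate of RNA quality. Of the hypoxia and unfolded protein response genes, Vegfa and Herpud1 lost theirs with the Actb measure and Ddit4 with the Gapdh measure. Of the remaining cell type lists, 1 of 13 oligodendrocyte and 1 of 8 ependymal markers rose, 2 of 11 oligodendrocyte precursor and 1 of 6 B cell markers fell, 1 of 10 neural precursor markers rose and 1 fell, and 0 of 3 erythrocyte markers were called by limma (0 at an unadjusted p under 0.05). When single arrays were left out, these counts ran from 1 to 3 for oligodendrocytes, 0 to 1 for ependyma, 1 to 2 for oligodendrocyte precursors and 0 to 2 for neural precursors.

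Markers of cells that could have entered the tissue were read in the same way. Of 17 macrophage and monocyte markers 7 rose and 1 fell. Cd14, the co-receptor of endotoxin, ran from 8.16 to 8.70 in BB hemispheres, against 5.09, 5.29, 6.19, 5.46 and 5.39 in Untreated hemispheres (2.98 ± 0.27), and Tlr2, its partner, rose by 1.39 ± 0.19. The receptor of Ccl2, Ccr2, which marks monocytes newly arrived from blood, averaged 4.08 in BB and 3.93 in Untreated hemispheres, and Cd163 and Cd68 were not called either. Among 10 neutrophil markers S100a9 (1.97 ± 0.43) and Lcn2 (0.65 ± 0.19) rose (5 calls without rat 18), while Cxcr2, Csf3r and Mmp8 averaged 4.45, 5.04 and 4.20 in BB and 4.40, 5.37 and 3.92 in Untreated hemispheres. The levels of Lcn2 were low, 4.70 to 5.13 in BB and 3.81 to 4.64 in Untreated hemispheres. Its call was lost without Untreated rat 5 and with all 115 arrays in the fit. Ccr2, Cxcr2 and Mmp8 lay near the bottom of the range, where the 5th percentile averaged 3.81 on BB and 3.83 on Untreated arrays. Their lack of a call therefore does not show whether such cells had entered, which was not tested. Of 16 T and NK cell markers the chemokine gene Ccl5 rose and the T-cell receptor subunits Cd3d, Cd3e and Cd3g differed by 0.35, −0.52 and 0.71 without a call. Tumour markers rose in 1 of 8 cases, Timp1, which is also on the reactive astrocyte list; their mean was 6.26 to 6.66 in BB hemispheres and 5.63 to 6.07 in Untreated ones, far below the 10.43 to 11.61 of Untreated tumours. The mean of striatal neuron markers spread from 9.07 to 10.94 over BB and from 9.24 to 10.54 over Untreated hemispheres and that of choroid plexus markers from 7.34 to 8.87 and from 5.94 to 8.77. Both means thus varied widely within both groups. The striatal mean was 10.31 to 10.94 in BB rats 44, 46, 47 and 48, and 9.45 and 9.07 in BB rats 45 and 49. In Untreated rats it was 9.24 to 9.54 except in rat 3 (10.54), so most BB rats lay above most Untreated rats. With the striatal mean as a covariate the number of called genes was 3020.

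Setting the BB difference at 6 h against that at 8 d addresses how much of it was early. The change in BB effect was called in 234 genes (1.65%), 144 (1.01%) more positive and 90 (0.633%) more negative at 6 h, and the count was 144 without BB rat 54 of the 8 d group and 513 without Untreated rat 18. All 12 of the largest rises were called: the change was 5.88 ± 0.61 for Ccl2, 4.86 for Gbp2, 4.65 for Cxcl10 and 4.21 for Sele. These rises, and the 12 largest falls, were chosen by their 6 h difference. That difference is also the first term of the change, so the choice itself favours such calls. At 8 d the striatal neuron markers also differed between the groups, with 9 of 17 called higher in BB hemispheres and a median difference of 1.19, and their part in the change was not tested. Sele averaged 7.88 ± 0.34 in BB hemispheres at 6 h (SD, n = 6), 3.58 ± 0.12 at 48 h (n = 3) and 3.69 ± 0.24 at 8 d (n = 4), with Untreated means of 3.50, 3.60 and 3.52. The BB and Untreated means were thus far apart at 6 h and close at both later times. Cdkn1a differed from these in that its BB level was 10.80 at 6 h, 10.82 at 48 h, 10.12 at 8 d and 9.40 at 15 d, with Untreated levels of 7.41, 7.69 and 8.50. Its change in BB effect was 1.77 ± 0.32. Part of this change came from the Untreated level, which was higher at 8 d (8.50) than at 6 h (7.41). Mgmt went the other way: its BB level was 6.83 at 6 h, 8.57 at 48 h, 7.88 at 8 d and 7.25 at 15 d, with Untreated levels of 6.00, 5.98 and 5.63. Its change in BB effect was −1.42 (adjusted p = 1.99e-05).

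By list, the change in BB effect was called in 6 of 25 acute inflammation genes, 6 of 29 interferon response genes, 8 of 27 p53 targets and 8 of 13 reactive astrocyte genes, each more positive at 6 h. The interferon count was 3 without BB rat 54 of the 8 d group, and the p53 count was 13 without Untreated rat 18. With all arrays the change was called for Gbp2, Cxcl10, Cxcl11, Psmb9, Irf1 and Ifit3, whereas for Rsad2 (0.84), Isg15 (1.02), Mx1 (0.27), Irf7 (−0.37) and Usp18 (−0.98) it was not. The BB means of Rsad2 were 10.06 at 6 h, 8.30 at 48 h, 8.99 at 8 d and 8.67 at 15 d, with Untreated means of 7.20, 7.53 and 6.97. The 4 BB hemispheres at 8 d spread widely in Rsad2, with an SD of 1.11.

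Among the falls, the change in BB effect was called in 8 of 19 endothelial genes, each more negative at 6 h, and in 7 to 8 when single arrays were left out. Slco1a4 had BB means of 8.67 at 6 h, 11.05 at 48 h, 10.81 at 8 d and 10.45 at 15 d, with Untreated means of 10.57, 10.93 and 10.15, and a change of −2.57. Prom1 (−2.32), Emcn (−2.13), Tek (−1.56), Sox17 (−1.54), Sox18 (−1.45) and Abcg2 (−1.42) were called as well, and without BB rat 54 the call of Sox17 was lost. The microglia list had 1 such call of 13, Siglec5 (−0.95), which was lost in 10 of 19 fits that left out an array. P2ry12 was −1.53 without a call, with BB means of 6.59 at 6 h, 8.60 at 48 h, 8.71 at 8 d and 8.57 at 15 d and Untreated means of 9.18, 8.32 and 9.77. Its BB level was thus lowest at 6 h, and at 8 d the BB mean was still 1.06 below the Untreated mean. In the neuron list 0 of 22 genes were called by limma (5 at an unadjusted p under 0.05), and Cacng3, Cabp1 and Ramp2 were not called either, with BB differences at 8 d of −1.09, −1.42 and −0.92.

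Against the BB difference at 48 h, the difference at 6 h was called different in 1288 genes (9.06%), 970 (6.82%) more positive and 318 (2.24%) more negative at 6 h, but the count was 496 without Untreated rat 18, a member of that 48 h group. 15 of 25 acute inflammation genes were more positive at 6 h and 9 of 19 endothelial genes more negative in this comparison. The inflammation count was 9 without BB rat 51 or 52 of the 48 h group and the endothelial count 5 without BB rat 50 of that group.

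**Figure D4:**
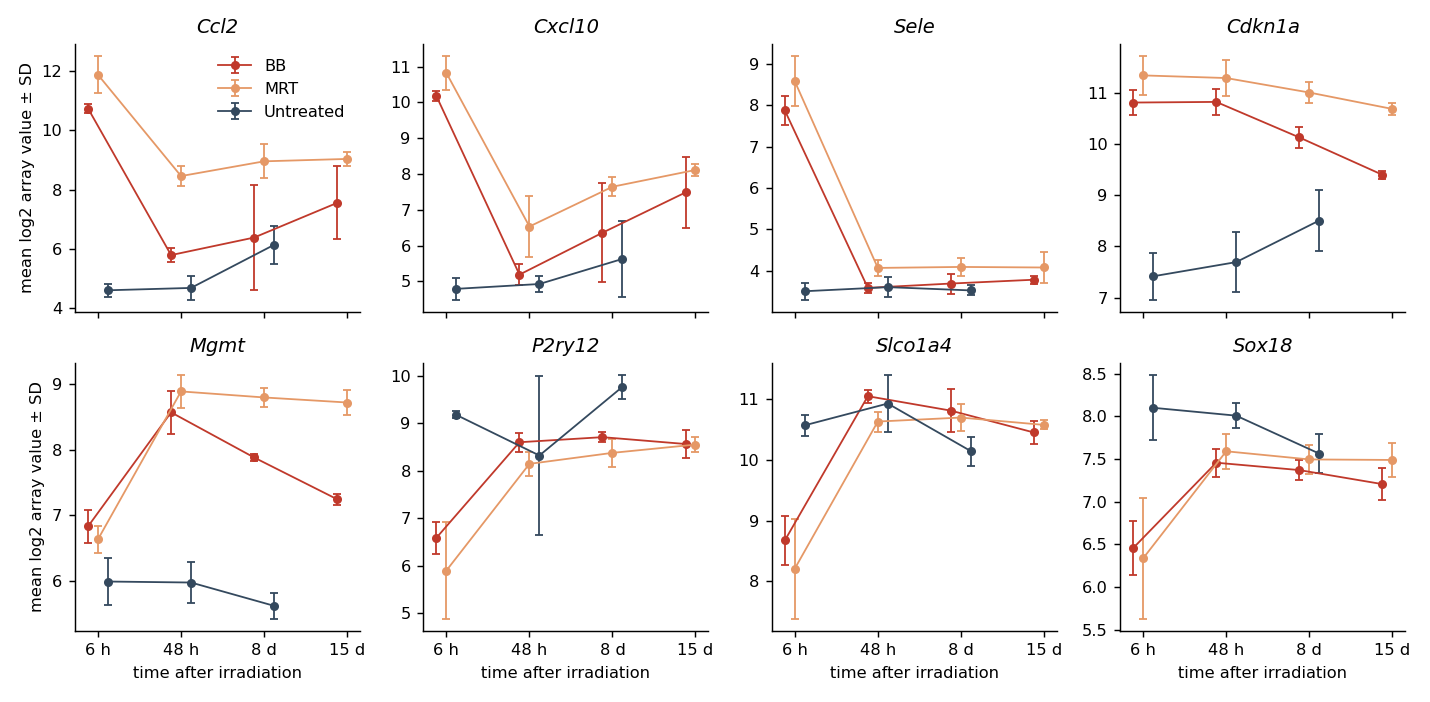
Mean log2 level with SD bars of 8 genes in contralateral brain at 6 h, 48 h, 8 d and 15 d for BB, MRT and Untreated rats; there is no Untreated group at 15 d, and MRT is drawn only for its place beside BB. In BB hemispheres Sele is high at 6 h (7.88) and at the Untreated level at 48 h (3.58). Cdkn1a has its lowest BB mean at 15 d (9.40), with no Untreated mean beside it. Mgmt is highest in BB hemispheres at 48 h (8.57), and Slco1a4 and P2ry12 are lowest at 6 h (8.67 and 6.59).

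Tumours were sampled from the same rats, so the BB difference in brain could be set against that in tumour at 6 h. The difference between them was called in 174 genes (1.22%), 98 (0.689%) more positive in brain and 76 (0.535%) more negative. The split was 85 against 107 with quantile normalization and 99 against 127 with a common array median, so its direction turned with the scaling. With the rat as a replicate block, since both tissues came from the same animals, the count was 516. Without BB tumour rat 46 it was 74, and without BB tumour rat 44 it was 499. Gbp2 differed by 5.43 in brain and by 1.06 in tumour (difference 4.37), Ccl2 by 6.13 and 2.58 (3.55) and Sele by 4.38 and 1.15 (3.23), and Cdkn1a, Angpt2, Cxcl10, Gbp7, Cxcl16 and Pla1a were also called. All of these genes were chosen by their brain difference, a term of this comparison, so the choice favours such calls here too. The chemokines Cxcl11, Ccl9 and Ccl7 were not called in this comparison, where Ccl7 differed by 3.31 in brain and 2.79 in tumour. Phlda3 differed by 1.90 in brain and 0.50 in tumour (1.40, called), while Mdm2 (1.31 and 1.07) and Ccng1 (1.18 and 1.41) gave similar values without a call of the difference. Of the 12 largest falls only Nxpe1 and Sox18 were called (−1.16 and −1.10), and those calls were lost in 8 and 10 of 22 fits that left out an array. In the endothelium list 2 of 19 genes were called (1 to 5 when single arrays were left out), or 7 with the rat as a block, and in the microglia list 0 of 13 by limma (0 at an unadjusted p under 0.05), where Csf1r differed by −1.18 in brain and −0.98 in tumour.

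**Figure D5:**
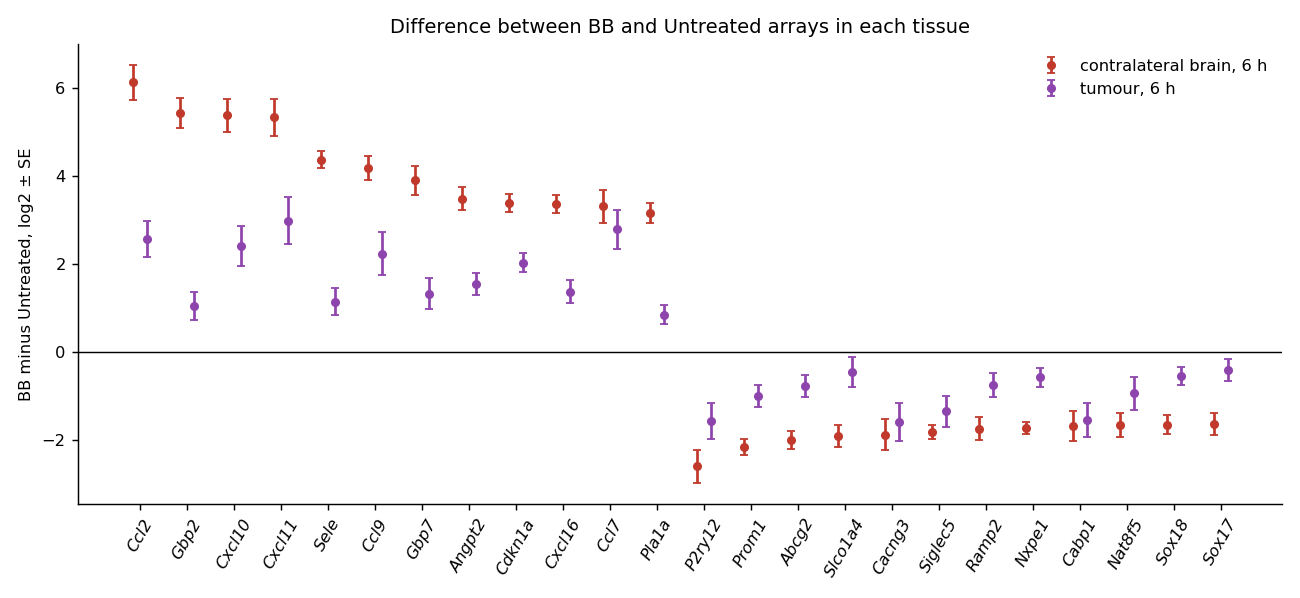
BB minus Untreated difference at 6 h in contralateral brain beside the same difference in tumour, in log2 units with standard errors, for the 12 genes that rose most and the 12 that fell most in brain. Ccl2, Gbp2 and Sele lie far above their tumour values (6.13, 5.43 and 4.38 in brain beside 2.58, 1.06 and 1.15 in tumour).

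Hemispheres at 6 h after MRT were the remaining comparison, in which the kind of irradiation and the label set cannot be told apart. BB and MRT hemispheres differed in 663 genes (4.66%), 199 (1.4%) higher and 464 (3.26%) lower after BB. With a common array median 433 were higher and 405 lower. This count rested on single arrays: it was 97 without BB rat 46, 185 without BB rat 48 and 1327 without MRT rat 8. BB rats 46 and 48 had the largest Gapdh 3′ minus 5′ differences of the BB group. Over BB hemispheres this difference ran from 0.15 to 0.65, and over MRT ones from −0.18 to 0.23. That of Actb ran from 1.99 to 2.55 over BB and from 1.08 to 2.20 over MRT hemispheres. The part of RNA quality in this comparison was not tested. In the acute inflammation list 19 of 25 genes were lower after BB than after MRT and 0 were higher, a median of −1.14, and 15 to 20 were lower when single arrays were left out. Cxcl2 was 2.86 lower, Il1b 2.54, Cxcl1 2.34, Ccl20 2.34, Ccl4 2.04 and Icam1 1.35. Of 10 neutrophil markers 6 were lower after BB, in every fit that left out an array, with S100a9 2.06 lower. Ccl2 was 1.14 lower, but its call was lost in 13 of 15 such fits. In the p53 list 1 of 27 genes was called (0 to 3 when single arrays were left out), in the endothelium list 2 of 19 (1 to 5) and in the microglia list 2 of 13, and Cdkn1a differed by −0.53 (adjusted p = 0.0763), Mdm2 by 0.04 and P2ry12 by 0.69. Set against the same Untreated hemispheres, which both comparisons share, Cxcl2 differed by 1.08 after BB and by 3.95 after MRT, Il1b by 1.60 and 4.14, Gbp2 by 5.43 and 5.65, and Abcg2 differed by −1.99 and −2.07.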

How the data were processed

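Total RNA, isolated with the mirVana kit, was labelled from 200 ng with the 3′ IVT Express kit and hybridised to Affymetrix arrays, per the labels' protocols. Affymetrix Expression Console was used with RMA (and, for the 80 arrays that are not BB, MAS5), per the submitters' processing notes, with versions not given in the sources used here. Each value that the authors deposited is an intensity on a linear scale. All are whole numbers, from 7 to 27837, and the medians of the 11 arrays were 117 to 126; they were therefore put on a log2 scale, on which rounding is a step of 0.19 at the lowest value. For arrays, the number of rats limits the precision, and the median standard error of a difference was 0.13.

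Of 31099 probe sets 57 are controls; the other 31042 were fitted. A gene is its brightest probe set with exactly 1 symbol (20826 such probe sets, 14217 genes; 436 had several symbols and 9780 none, in GEO's platform annotation). Group means over all 56 contralateral arrays (115 for brain against tumour) were fitted with limma 3.58.1 in R 4.3.3, with intensity-dependent variance priors and Benjamini-Hochberg adjustment over all probe sets, and called at adjusted p under 0.05. Alternatives changed the arrays fitted, scaling, probe set choice, variance prior, weights, covariates and the rat as a block.

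The rat number pairs brain and tumour of an animal (correlation of deviations 0.0985 to 0.377 over the 11 rats); BB and Untreated groups share no animal. Labels do not say more of independence than that each array is another rat. The groups, the 36 gene lists (584 of 651 genes measured) and the tests were chosen with earlier results of these data known. Named are the 12 largest called rises and falls without overlap, the called members of each list (at most 4 by moderated statistic, or 2 where none is called), and Cdkn1a, Mdm2, Ccng1, Aen, Bax, Phlda3 and Mgmt; other list members are named where a list's account needs them, chosen after their values were seen. The fit was tested on simulated data. Other tools were pandas 2.3.3, numpy 2.4.6, scipy 1.17.1 and matplotlib 3.10.9.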

Additional observations from a re-analysis of the deposited data

Results flagged for a closer look

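In 15 of 296 tests (5.07%) on named genes and list means, the highest or lowest rat of a group stood apart from the others by Dixon's criterion, which chance alone meets in about 1 group in 20. In the BB group these were Angpt2 in rat 45 (8.93), Prom1 in rat 44 (7.26), Icam1 and Grm7 in rat 46 (8.80 and 6.44) and Olig1, Lgals3 and Gpnmb in rat 47 (11.29, 9.67 and 10.00). In the Untreated group they were Mvd and Prkcd in rat 3 (8.64 and 9.18), Nat8f5 in rat 4 (8.27) and Mlf1 in rat 1 (4.81), and the list means of potassium channels (8.76) and ependyma (5.99) in rat 1 and of striatal neurons (10.54) and B cells (5.94) in rat 3. The rises of Angpt2 and Icam1 and the fall of Prom1 were called whichever array was left out.

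The BB effect at 6 h differed by its own test in limma from that at 8 d in 234 genes and from that at 48 h in 1288 genes. Beside the values given above, the change between 6 h and 8 d was 5.88 for Ccl2, 4.86 for Gbp2, 4.65 for Cxcl10, 4.74 for Cxcl11, 4.21 for Sele, 4.43 for Ccl9, 3.12 for Gbp7, 3.42 for Angpt2, 1.77 for Cdkn1a, 2.54 for Cxcl16, 2.73 for Ccl7 and 3.65 for Pla1a. Among the falls it was −2.32 for Prom1, −1.42 for Abcg2, −2.57 for Slco1a4, −0.95 for Siglec5, −2.17 for Nxpe1, −1.45 for Sox18 and −1.54 for Sox17.

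The BB effect at 6 h differed between contralateral brain and tumour in 174 genes. The brain value exceeded the tumour value by 3.55 for Ccl2, 4.37 for Gbp2, 2.97 for Cxcl10, 3.23 for Sele, 2.57 for Gbp7, 1.94 for Angpt2, 1.36 for Cdkn1a, 2.00 for Cxcl16 and 2.32 for Pla1a, and it was more negative in brain for Nxpe1 (−1.16) and Sox18 (−1.10).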

How the results depend on the processing

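Of 104 named genes called between BB and Untreated contralateral brain at 6 h, 15 lost their call when some single array was left out, and 73 kept it with all 115 arrays in the fit, 85 with the Gapdh and 80 with the Actb measure as a covariate (the Actb covariate and the fit without Untreated 48 h rat 18 were chosen after seeing the data), and 98 with the mean of all probe sets of a gene; the other settings kept at least 99. The number of called genes, 2753, was 1560 with all 115 arrays, 4307 with array quality weights, 1710 with the Gapdh covariate, 4133 without Untreated 48 h rat 18 and 1639 to 2908 when single arrays were left out. The change from 6 h to 8 d (234) was 513 without rat 18 and 144 to 250 leaving out single arrays, that from 6 h to 48 h (1288) was 496 to 2663, BB against MRT (663) was 1669 without rat 18 and 97 to 1327, and brain against tumour (174) was 516 with the rat as a replicate block and 74 to 499. No paired analysis was possible within contralateral brain because BB and Untreated groups are different rats. With a common array median the higher share of calls was 72.8% against 61.5% as reported for 6 h against 8 d, 51.7% against 30.0% for BB against MRT and 43.8% (44.3% with quantile normalization) against 56.3% for brain against tumour. Reversed signs were Klf9 with the mean of its probe sets (−0.0112), and Aqp1 with the Actb covariate (0.0707) and Alas2 without Untreated rat 2 (0.0533; range over single arrays left out −0.4345 to 0.0533), neither of them called; the cause was not tested. Levels near the low end of the scale, such as Sele in Untreated rats, are limited by rounding.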
